A study of Ovis aries with 40 samples.

Results

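Proximal lung of CF (CFTR-/-) and WT fetal sheep was compared at days 100 and 120 of gestation, with 2 bulk RNA-seq libraries for each genotype and day. These 8 libraries, of 40 in the series, were chosen by the region, genotype and day in their labels and not by a measured value. Earlier results of these data were known when the choice was made. The animals were American Romney sheep. The CF fetuses carried a disrupted CFTR gene in both alleles, targeted in exon 2, and were made by somatic cell nuclear transfer from 1 male fetal fibroblast line, while the WT fetuses were bred naturally and their sex is not given. Loss of CFTR, cloning, sex and genetic background therefore cannot be told apart in any difference between the groups. Both WT libraries of day 100 carry 1 animal label, and CF day 100 replicate 2 shares an animal label with a WT library of another age, so p-values measure the spread between libraries, which may in part be technical.

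CFTR is a chloride and bicarbonate channel of epithelial cells, and its loss causes cystic fibrosis, in which airway secretions are dehydrated and mucus accumulates. In the fetus, CFTR and other chloride channels secrete the liquid that fills and expands the lung. Late in gestation the proximal lung holds conducting airways with cartilage, smooth muscle and a basal, secretory and ciliated epithelium, and around them distal airspaces in which type 2 cells begin to make surfactant. Bulk tissue mixes all of these, so that fewer cells of a type and less RNA per cell cannot be told apart.

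Depth differed between the genotypes, with 26617761 to 38635126 counted reads per WT library and 89854181 to 101116915 per CF library. Of 24478 genes, 18689 had enough counts to be tested. Levels are given as CPM, which are normalised read counts scaled to library size with TMM factors of the 8 libraries, and log2 fold changes are positive where CF is higher. Where 4 values of a genotype stand in a row, they are day 100 replicates 1 and 2 and then day 120 replicates 1 and 2. The 4 CF and 4 WT libraries were compared in edgeR (quasi-likelihood F test) with day as a covariate, and p-values were adjusted over all tested genes by the Benjamini-Hochberg method. A gene was called at an adjusted p of 0.05 or less, and it passed the strict limit, which is the one used by the study, at an adjusted p of 0.001 or less with a log2 fold change of at least 0.58 in size.

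One of the 8 libraries stood apart. CF day 120 replicate 2 lay at 188 on the first principal component, which held 45.2% of the variance, and the other 7 libraries lay between -54.5 and 30.8. Its root mean square difference in log2 CPM from its replicate was 1.78, against 0.82 in WT at day 100, 0.813 in WT at day 120 and 0.863 in CF at day 100. Relative to the mean of the 8 libraries, on the log2 scale, genes with less than 1 kb of exons had a median of 0.84 in this library. Genes with over 8 kb had a median of -0.53. The gap between those length classes was 1.37 there, 0.34 in CF day 100 replicate 2, -0.73 and -0.75 in the other 2 CF libraries and -0.15 to 0.19 in the WT libraries. It also had the smallest TMM factor (0.861, against 0.939 to 1.13) and the smallest share of mitochondrial reads (0.942%, against 1.54% to 2.26%), and 85.8% of its counts from 1 to 20 were even, against 73.6% to 77.5% elsewhere. Between the 2 CF libraries of day 120, 1867 genes lay over 4-fold apart in CPM + 1, against 171 between the CF libraries of day 100 and 30 and 36 between the WT pairs. Counts of calls are therefore given with and without this library, and single fold changes mainly where leaving it out changed a call or a direction or moved the value far. Its part in single differences was not otherwise tested.

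**Figure D1:**
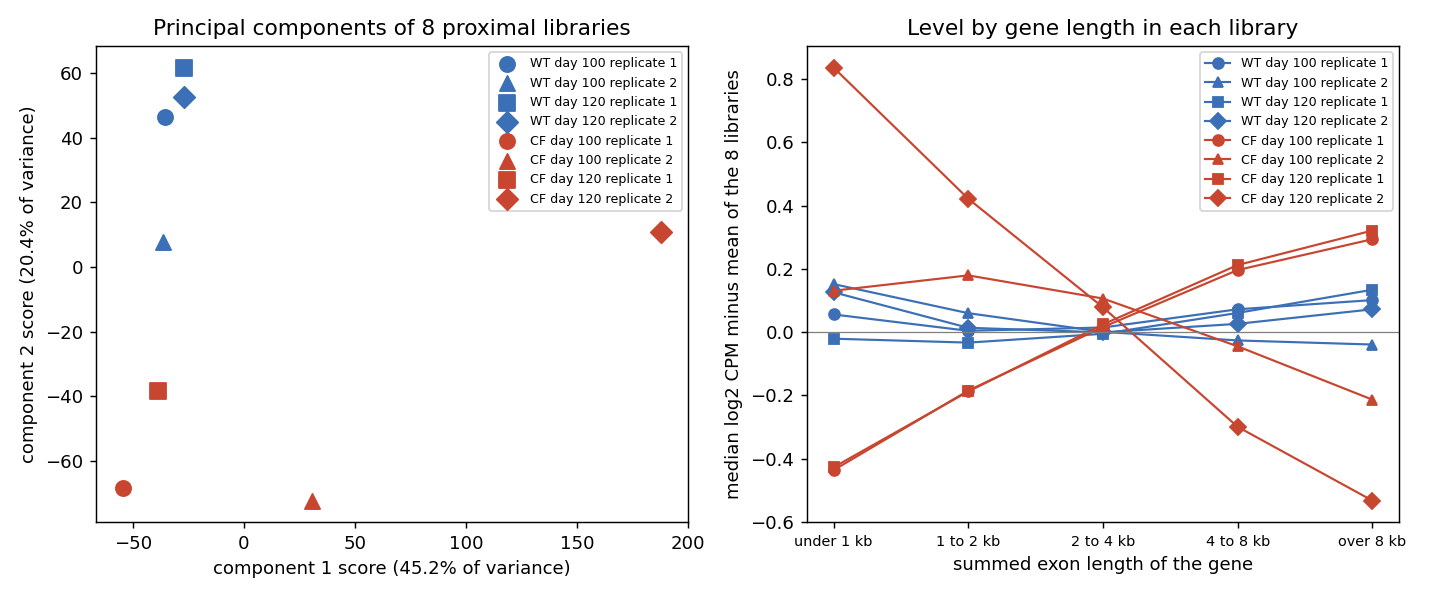
Left, the 8 libraries on principal components 1 and 2 of log2 CPM, with the share of variance on each axis and one point per library, coloured by genotype and shaped by day. Right, the median over genes of log2 CPM relative to the mean of the 8 libraries, by class of exon length, one line per library. CF day 120 replicate 2 lies at 188 on component 1 and is the library whose line falls from short to long genes by 1.37.

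CFTR itself (chr4:50644000-50864925 in Oar_v4.0, minus strand) was at 25 and 21.3 CPM in WT and 16.3 and 12.8 in CF at day 100. At day 120 CFTR was at 12.5 and 11 CPM in WT and 8.7 and 4.94 in CF. CF was lower within each day, although the levels of the genotypes overlap between days, and the difference did not pass adjustment (log2 fold change -0.73, SE 0.24, adjusted p = 0.156). Without CF day 120 replicate 2 it was -0.58, adjusted p = 0.0843, while DESeq2 gave an adjusted p of 0.0317. The counts are summed over the whole gene and do not show exon 2, so that this level is no check of the genotype labels.

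Among the genes that move ions and water across the airway epithelium, 26 of 28 listed could be tested and edgeR called none. At an unadjusted p below 0.05, 2 were higher and 3 lower (12.8% and 6.29% of all genes). DESeq2 called 2 higher and 2 lower (7.97% and 3.61% of all genes). The median log2 fold change of the 26 was -0.28, against 0.04 over all genes tested. Of the 26, 7 were above 0, against 9953 of all 18689 genes tested. The smallest p was that of ATP1B1, the beta subunit of the sodium pump, at 199 and 175 CPM in WT and 118 and 120.2 in CF at day 100. At day 120 ATP1B1 was at 124 and 139 CPM in WT and 59.5 and 34.5 in CF. All 4 CF libraries were below all 4 WT libraries, but the adjusted p was 0.0754 with the 8 libraries (log2 fold change -1.07, SE 0.24) and 0.0174 without CF day 120 replicate 2. CLCN2, a chloride channel of fetal lung epithelium, went the other way, with 4.64 to 5.54 CPM in WT and 6.64 to 11 CPM in CF and no overlap (log2 fold change 0.89, SE 0.25, adjusted p = 0.114; without that library, 1.05, adjusted p = 0.0204).

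SLC26A9, an anion transporter that acts with CFTR in airway epithelium, was at 20.4 and 17.2 CPM in WT and 29.2 and 40 in CF at day 100. At day 120 SLC26A9 was at 19.4 and 28.4 CPM in WT and 28.2 and 50.9 in CF. The highest WT library overlapped the lowest CF library, and the difference of 0.80 (SE 0.25) had an adjusted p of 0.142 in edgeR and 0.0433 in DESeq2. ANO1, the calcium-activated chloride channel, was at 73.9 and 73 CPM in WT and 77.9 and 80.1 in CF at day 100. At day 120 ANO1 was at 132 and 144 CPM in WT and 80 and 110.4 in CF. The 2 CF libraries of day 120 were thus below both WT libraries and the 2 of day 100 above them, and the difference over both days was -0.22 (SE 0.19, adjusted p = 0.596). SCNN1A and SCNN1B encode subunits of the epithelial sodium channel, which absorbs lung liquid after birth. SCNN1A was at 3.59, 3.36, 15.7 and 10.2 CPM in the WT libraries and 5.12, 2.98, 16 and 1.91 CPM in the CF libraries, so that the 2 CF libraries of day 120 held the highest and the lowest value (log2 fold change -0.16, SE 0.58, adjusted p = 0.923). For SCNN1A the log2 fold change was 0.25 without CF day 120 replicate 2 (adjusted p = 0.567). SCNN1B ran from 14.3 to 21.5 CPM in WT and 6.56 to 41.5 CPM in CF, with the highest value in CF day 120 replicate 2 (log2 fold change 0.01, SE 0.39, adjusted p = 0.994; without CF day 120 replicate 2, -0.43, adjusted p = 0.318).

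**Figure D2:**
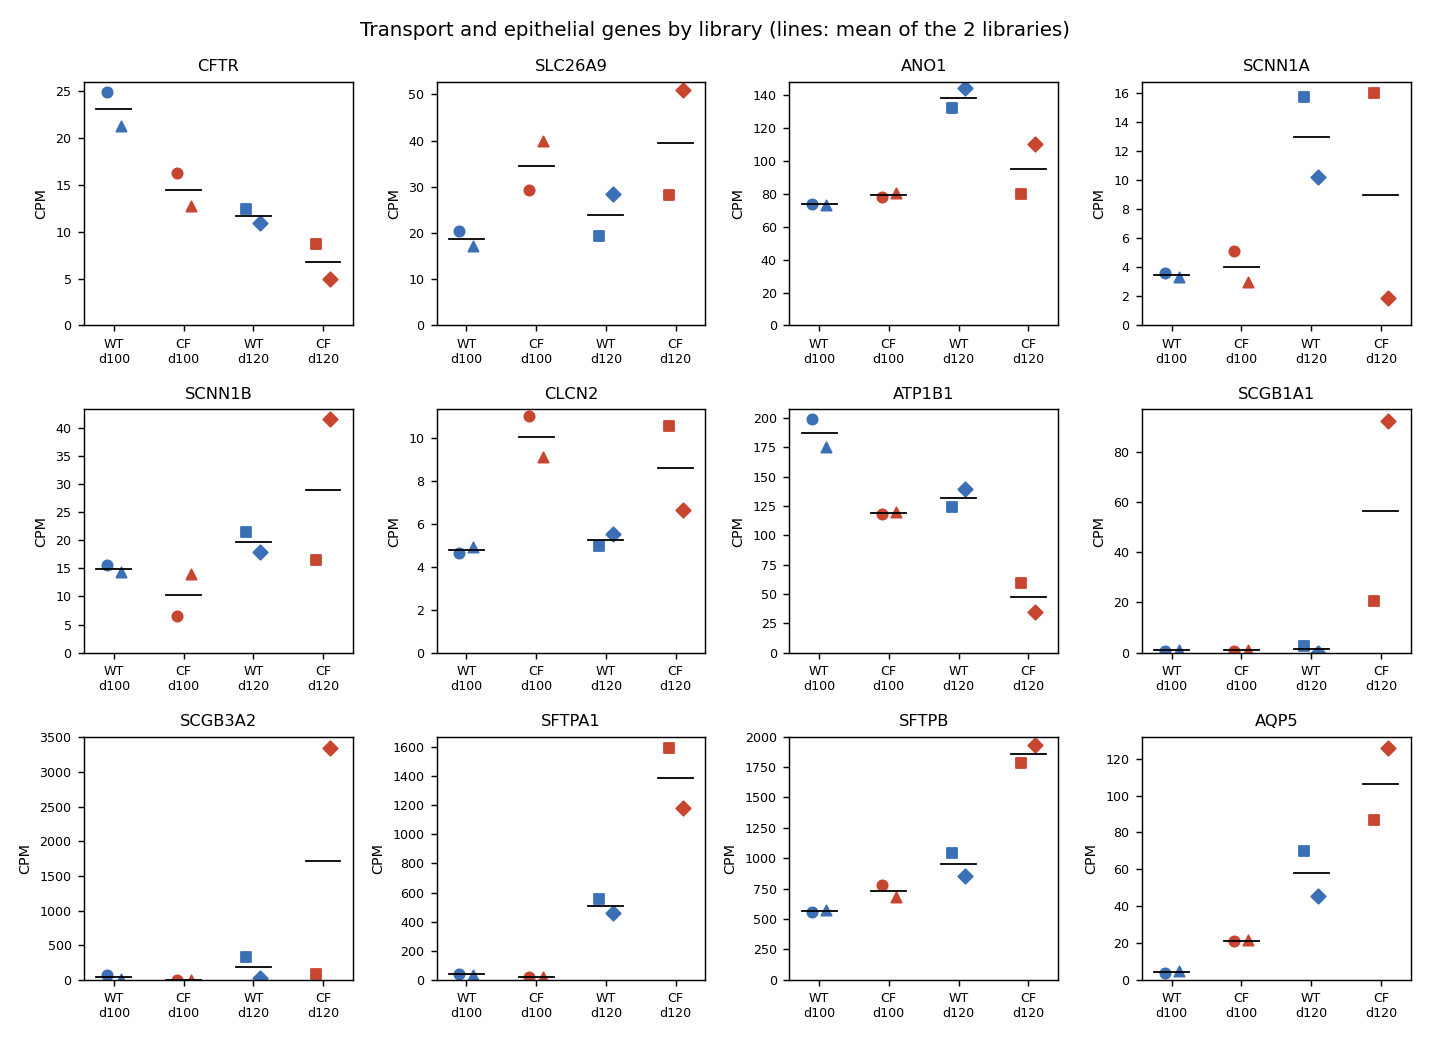
CPM for 12 genes of ion transport, airway secretion and surfactant in the 8 libraries, by genotype and day. A short line marks the mean of the 2 libraries of a group. CFTR lies lower in CF at both days, and SCGB3A2 spans 1.28 to 3344 CPM among the CF libraries.

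Over all genes, 281 were called higher in CF (1.5% of those tested) and 53 lower (0.284%). Only 1 gene, an X-linked long noncoding RNA described further on, passed the strict limit (0.00535% of those tested). Separation of the groups was more common than a call, since in 1619 genes (8.66%) all 4 CF libraries were above all 4 WT libraries and in 1064 (5.69%) all 4 were below. Of the 281 called higher, 271 (96.4%) showed no overlap, and of the 53 called lower 47 (88.7%). The called genes had a median log2 fold change in size of 1.43 (0.66 to 8.68) where higher and 1.41 (0.74 to 12.63) where lower. Genes called higher had a median exon length of 4073 bases, against 2820 for those called lower and 2901 for all genes tested. With a trend on exon length removed, 612 genes were called higher and 303 lower. On the X chromosome 7 genes were called higher and 5 lower of 685 tested.

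At equal depth the calls remained close to these. With each library thinned at random to 26617761 reads, 17404 genes could be tested, of which 233 were called higher and 42 lower. All 334 genes called at full depth could be tested again, all had the same direction, and 268 of them (80.2%) were called again, with the largest adjusted p at 0.0907 and a median shift in log2 fold change of 0.027. The largest shift was 1.39.

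The 2 CF libraries of day 120 had unlike weight in the calls. Without replicate 2, the library that stood apart, 1205 genes were called higher (6.5% of 18527) and 572 lower (3.09%), including all 334 genes called with the 8 libraries, in the same direction. Without replicate 1, 145 were called higher and 35 lower, and 152 of the 334 (45.5%) were among them. Each CF library on its own was above all 4 WT libraries in 32.4% to 37.9% of the genes tested and below in 28.3% to 37.8%, with the highest shares in CF day 120 replicate 2. Of the 281 genes called higher, CF day 120 replicate 1 was above all WT libraries in 279 and replicate 2 in 280. Of the 53 called lower, these libraries were below all WT libraries in 47 and 48.

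DESeq2 called far more genes from the same counts, 1489 higher (7.97%) and 674 lower (3.61%), with 610 past the strict limit. Leaving out any 1 of the WT libraries or of the CF libraries of day 100 left 1 to 3 genes called by edgeR in place of 334, and summing the 2 WT libraries with the same animal label left 2. The cause of these differences between fits was not tested. The number of calls thus depended on single libraries. None of the 37 called genes that the rule for named genes gave changed direction in any of these fits. For 30 of them the choice required groups that did not overlap, which largely fixed the direction in advance. Of 168 genes given by that rule, edgeR called 37, and DESeq2 called those 37 and 58 more.

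**Figure D3:**
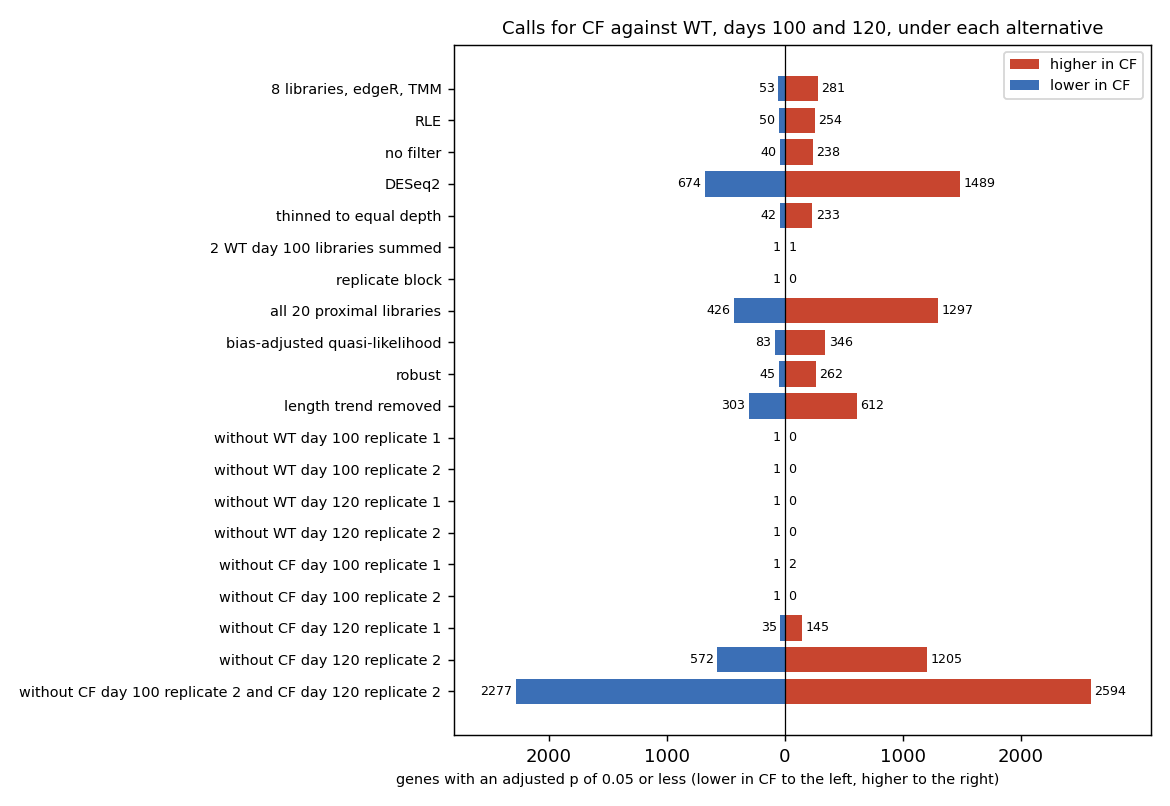
Number of genes called higher (bars to the right) and lower (bars to the left) in CF at an adjusted p of 0.05 or less under each alternative. With all 8 libraries edgeR called 281 and 53; leaving out CF day 120 replicate 2 gave 1205 and 572, and leaving out a WT library gave 0 and 1.

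Among genes with an average log2 CPM of at least 1 and no overlap between groups, the 15 with the largest called increase had log2 fold changes from 2.89 (LOC105609712) to 4.78 (LOC101108147). Several are better known from muscle, testis or pigment cells than from lung. MYBPC3, the myosin-binding protein C of heart muscle, was at 2.01 and 2.88 CPM in WT and 9.27 and 15.7 in CF at day 100. At day 120 MYBPC3 was at 1.28 and 2.15 CPM in WT and 20.7 and 52.4 in CF. Every CF library exceeded every WT library, and the highest was CF day 120 replicate 2 (log2 fold change 3.38, SE 0.51, adjusted p = 0.0399; without that library, 2.87, adjusted p = 0.00574). GPR143, a receptor of melanosomes on the X chromosome (chrX:6859793-6883022), was at 1.41, 2.51, 1.4 and 1.21 CPM in the WT libraries and 9.4, 25.3, 8.66 and 22.3 CPM in the CF libraries (log2 fold change 3.35, SE 0.43, adjusted p = 0.0288). For both of these genes replicate 2 was the higher CF library of each day. TSKS, a kinase substrate of spermatids, was at 0.0566, 0.222, 0.759 and 0.551 CPM in the WT libraries and 1.26, 3.18, 3.29 and 8.31 CPM in the CF libraries, low throughout but without overlap (log2 fold change 3.53, SE 0.55, adjusted p = 0.039). CATSPER4, a subunit of the calcium channel of sperm, was at 2.06, 1.77, 4.61 and 4.46 CPM in the WT libraries and 19.1, 31.8, 11.2 and 34.2 CPM in the CF libraries (log2 fold change 3.02, SE 0.43, adjusted p = 0.0352).

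Other leading genes encode secreted or membrane proteins of signalling. KCP (chr4:92883866-92913694), a secreted enhancer of BMP signalling, was at 4.95 and 13.5 CPM in WT and 50.4 and 72.4 in CF at day 100. At day 120 KCP was at 4.38 and 4.44 CPM in WT and 37.8 and 36.9 in CF. The lowest CF library was over the highest WT library by a wide margin (log2 fold change 2.91, SE 0.31, adjusted p = 0.0279). For KCP the log2 fold change was 2.89 without CF day 120 replicate 2 (adjusted p = 0.00466). HGFAC, the protease that activates hepatocyte growth factor, was at 0.961, 1.33, 1.2 and 1.3 CPM in the WT libraries and 5.86, 13.6, 8.17 and 16.1 CPM in the CF libraries (log2 fold change 3.19, SE 0.36, adjusted p = 0.0279). LAG3, an inhibitory receptor of activated T cells, ran from 0.276 to 0.701 CPM in WT and 2.2 to 6.3 CPM in CF (log2 fold change 3.18, SE 0.47, adjusted p = 0.0349). Of 17 lymphoid genes tested, edgeR called none. At an unadjusted p below 0.05, 1 was higher and 2 lower (12.8% and 6.29% of all genes). DESeq2 called 1 higher and 2 lower (7.97% and 3.61% of all genes). The summed level of the lymphoid list was 30.1 to 41.5 CPM in WT and 23.6 to 45.2 CPM in CF. TMEM86B, an enzyme of ether lipid breakdown, ran from 1.21 to 3.7 CPM in WT and 9.23 to 31.1 CPM in CF (log2 fold change 3.21, SE 0.48, adjusted p = 0.0387).

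The remaining leading genes are named in the tables by locus number. LOC101108147 (chr11:41259413-41262140) showed the largest increase of these, at 0.424, 0.517, 1.08 and 0.165 CPM in the WT libraries and 6.27, 14.4, 8.66 and 33.8 CPM in the CF libraries (log2 fold change 4.78, SE 0.64, adjusted p = 0.0321). LOC105612922, which RefSeq names WDR97, was at 1.07, 0.887, 0.934 and 0.909 CPM in the WT libraries and 6.02, 10.7, 11.4 and 11.2 CPM in the CF libraries (log2 fold change 3.35, SE 0.28, adjusted p = 0.0264). LOC105609712, which RefSeq names SMIM1, a small protein of red cell membranes, ran from 1.61 to 2.74 CPM in WT and 7.74 to 34.6 CPM in CF (log2 fold change 2.89, SE 0.50, adjusted p = 0.0454) and overlaps LRRC47 in the genome. LOC101120395 ran from 0.0739 to 2.69 CPM in WT and 4.84 to 27 CPM in CF, LOC106990829 from 0.992 to 5.46 CPM in WT and 7.92 to 39.3 CPM in CF, LOC105602135, inside MAML2, from 0.331 to 1.22 CPM in WT and 3.57 to 10.5 CPM in CF and LOC106990926, beside SHC3, from 0.296 to 0.634 CPM in WT and 2.5 to 4.24 CPM in CF. Where a gene overlaps another, their reads may be split between them, because the strand setting of the counting is not given.

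**Figure D4:**
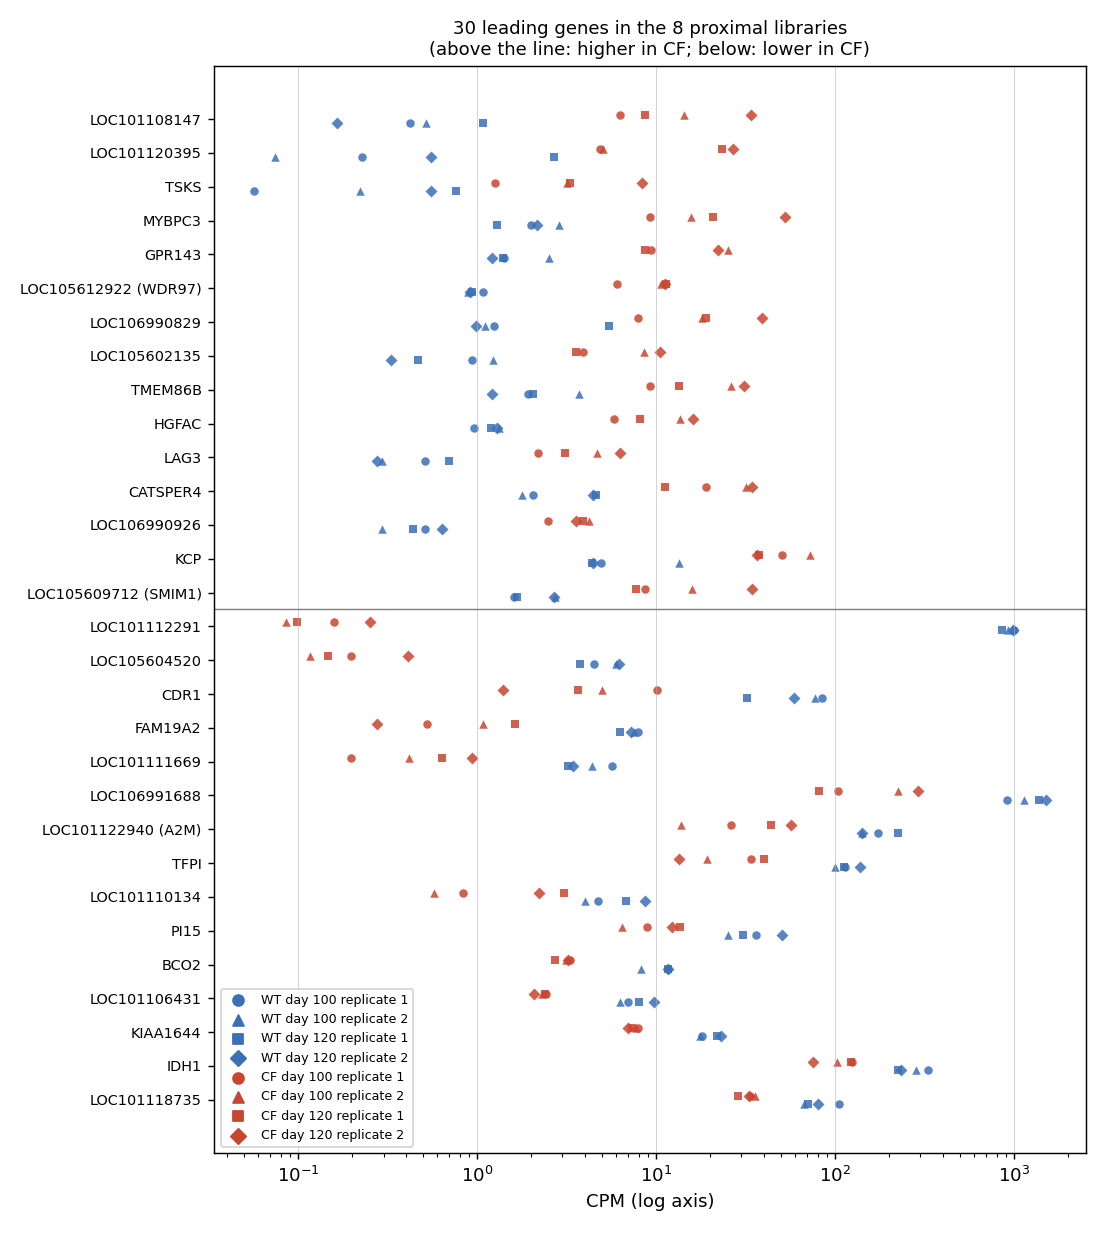
CPM on a log axis in the 8 libraries for the 15 genes with the largest called increase and the 15 with the largest called decrease, WT and CF in different colours and days in different shapes. The groups do not overlap in any of the 30, as the choice of genes required, and LOC101112291 shows the widest gap, 855 to 1001 CPM in WT against 0.0850 to 0.253 CPM in CF.

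Genes with smaller and more even increases were called as well, and the following were chosen after their values were seen. GABBR1, a subunit of the GABA-B receptor, was at 25.9 and 28.5 CPM in WT and 66.7 and 80.8 in CF at day 100, and 27.2 and 31.5 in WT and 92.1 and 80.6 in CF at day 120, higher in CF by a like amount at each day (log2 fold change 1.5, SE 0.15, adjusted p = 0.0264). MSS51, a mitochondrial protein of muscle, ran from 11.2 to 15 CPM in WT and 39 to 46.2 CPM in CF (log2 fold change 1.70, SE 0.17, adjusted p = 0.0264). SLC26A10, a relative of the anion transporters, was at 6.87, 9.76, 9.08 and 10 CPM in the WT libraries and 28.5, 48.6, 39 and 41.4 CPM in the CF libraries (log2 fold change 2.14, SE 0.22, adjusted p = 0.0264). PKD1, encoding polycystin 1 of primary cilia, ran from 32.2 to 63.6 CPM in WT and 152 to 212 CPM in CF (log2 fold change 1.87, SE 0.23, adjusted p = 0.0279), and NFATC4, a calcium-regulated transcription factor, from 19.8 to 27.1 CPM in WT and 58.5 to 109.8 CPM in CF (1.97, SE 0.22, adjusted p = 0.0279). The sizes without CF day 120 replicate 2 were 1.52 for GABBR1, 1.66 for MSS51, 2.14 for SLC26A10, 1.87 for PKD1 and 1.88 for NFATC4.

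The largest decrease, and the call past the strict limit, was in LOC101112291, a long noncoding RNA by RefSeq's annotation. It lies on the X chromosome at chrX:62537188-62573407 (Oar_v4.0, minus strand), between CHIC1 and LOC105605507. It was at 1001 and 928 CPM in WT and 0.158 and 0.085 in CF at day 100, and 855 and 983 in WT and 0.0983 and 0.253 in CF at day 120, so that CF was near 0 in every library (log2 fold change -12.63, SE 0.32, adjusted p = 6.69e-05). In the whole series it was below 1 CPM in all 20 CF libraries and in 4 of 20 WT libraries, and above 300 CPM in the other 16 WT libraries. Since CF animals came from 1 male line and WT sex is not given, genotype and sex cannot be told apart here. Among 11 genes listed as escaping X inactivation, edgeR called none. At an unadjusted p below 0.05, 1 was higher and 2 lower (12.8% and 6.29% of all genes). DESeq2 called 1 higher and 1 lower (7.97% and 3.61% of all genes). All CF libraries were below all WT libraries in 3 of the 11 and above them in 1, against 5.69% and 8.66% of all genes. Of the 11, 2 had a log2 fold change above 0, against 9953 of all 18689 genes tested. XIST, on the same list, was not found by name among the genes. EIF2S3, an X-linked subunit of a translation initiation factor, was at 427, 375, 260.0 and 381 CPM in the WT libraries and 149.7, 209, 112 and 206 CPM in the CF libraries (log2 fold change -1.09, SE 0.24, adjusted p = 0.0741). For EIF2S3 the log2 fold change was -1.30 without CF day 120 replicate 2 (adjusted p = 0.0101). KDM6A, an X-linked histone demethylase, ran from 71.1 to 78.3 CPM in WT and 23.9 to 63.6 CPM in CF (log2 fold change -0.66, SE 0.28, adjusted p = 0.248). For KDM6A the log2 fold change was -0.42 without CF day 120 replicate 2 (adjusted p = 0.103). LOC101112542, which lies farther along on the same strand and was chosen after its values were seen, was called higher, at 111 to 157 CPM in WT and 306 to 356 CPM in CF (log2 fold change 1.34, SE 0.15, adjusted p = 0.0279).

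CDR1, a second X-linked gene (chrX:89397004-89399137), was at 84.7 and 77.8 CPM in WT and 10.2 and 4.98 in CF at day 100. At day 120 CDR1 was at 32.3 and 58.8 CPM in WT and 3.66 and 1.39 in CF. Every CF library was below every WT library (log2 fold change -3.79, SE 0.39, adjusted p = 0.0279), and because strand is not given, transcripts from the opposite strand of this locus could not be separated. The other decreases among the 15 chosen by the same rule were on autosomes or unplaced sequence. TFPI, the inhibitor of tissue factor in coagulation, was at 114 and 101 CPM in WT and 33.9 and 19.2 in CF at day 100. At day 120 TFPI was at 112 and 138 CPM in WT and 40 and 13.4 in CF. The CF libraries were thus at most at 40 and the WT libraries at least at 101 CPM (log2 fold change -2.12, SE 0.34, adjusted p = 0.0388). LOC101122940, which RefSeq names A2M, a broad protease inhibitor of plasma, was at 174 and 141 CPM in WT and 26.2 and 13.8 in CF at day 100. At day 120 LOC101122940 was at 226 and 141 CPM in WT and 44.2 and 56.8 in CF. The gap was wider at day 100 than at day 120, with log2 fold changes of -2.97 and -1.86, a difference of 1.11 with an unadjusted p of 0.0815 (log2 fold change -2.42, SE 0.32, adjusted p = 0.0288 over both days). PI15, another protease inhibitor, ran from 25.3 to 50.5 CPM in WT and 6.46 to 13.6 CPM in CF (log2 fold change -1.83, SE 0.24, adjusted p = 0.0288).

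Metabolic enzymes were among the decreases as well. IDH1, the cytosolic isocitrate dehydrogenase that yields NADPH, was at 333 and 283 CPM in WT and 124 and 103 in CF at day 100. At day 120 IDH1 was at 225 and 233 CPM in WT and 123 and 75.7 in CF. All CF libraries lay well below the WT libraries (log2 fold change -1.32, SE 0.19, adjusted p = 0.031). For IDH1 the log2 fold change was -1.22 without CF day 120 replicate 2 (adjusted p = 0.00713). BCO2, which cleaves carotenoids, was at 11.6, 8.28, 11.7 and 11.6 CPM in the WT libraries and 3.32, 3.12, 2.71 and 3.22 CPM in the CF libraries (log2 fold change -1.80, SE 0.23, adjusted p = 0.0288) and overlaps LOC101112255. FAM19A2, a small secreted protein, was at 7.92, 7.5, 6.31 and 7.27 CPM in the WT libraries and 0.524, 1.08, 1.63 and 0.276 CPM in the CF libraries (log2 fold change -3.04, SE 0.52, adjusted p = 0.0454). KIAA1644 ran from 17.6 to 23.1 CPM in WT and 6.98 to 7.94 CPM in CF (log2 fold change -1.42, SE 0.19, adjusted p = 0.0288). Of the genes known by locus number, LOC106991688 was at 911, 1139.7, 1382 and 1510.0 CPM in the WT libraries and 104, 226, 81.1 and 290.5 CPM in the CF libraries (log2 fold change -2.80, SE 0.41, adjusted p = 0.0356). LOC105604520, inside ACAA2, ran from 3.77 to 6.2 CPM in WT and 0.117 to 0.413 CPM in CF, LOC101111669 from 3.21 to 5.71 CPM in WT and 0.198 to 0.942 CPM in CF, LOC101110134 from 3.99 to 8.71 CPM in WT and 0.574 to 3.07 CPM in CF, LOC101106431 from 6.32 to 9.78 CPM in WT and 2.09 to 2.43 CPM in CF and LOC101118735, inside ANO10, from 67.6 to 106 CPM in WT and 28.5 to 35.7 CPM in CF. At equal depth LOC101111669 was no longer called (adjusted p = 0.0525), the only one of the 30 leading genes to be lost.

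Matrix and smooth muscle genes that the study names were followed next. They were named there for higher levels in CF at day 65 or 80, so they are no independent choice. Of 5 such genes, 3 were called, against 1.5% of all genes called higher. ITGA7 (chr3:163257841-163281404), the laminin receptor of muscle, was at 28 and 28.9 CPM in WT and 68.2 and 89.4 in CF at day 100. At day 120 ITGA7 was at 31.5 and 35.7 CPM in WT and 103 and 97.1 in CF. The lowest CF library was at 68.2 and the highest WT library at 35.7 CPM (log2 fold change 1.52, SE 0.15, adjusted p = 0.0264). For ITGA7 the log2 fold change was 1.53 without CF day 120 replicate 2 (adjusted p = 0.0036). ECM1, a secreted matrix glycoprotein, was at 13.9, 16.2, 17.5 and 15.5 CPM in the WT libraries and 27.4, 47.4, 32.7 and 41.9 CPM in the CF libraries (log2 fold change 1.25, SE 0.22, adjusted p = 0.0437). SSC5D, a soluble scavenger receptor, was at 16.6, 21.4, 18.5 and 12.7 CPM in the WT libraries and 33.3, 42.5, 42.2 and 36.7 CPM in the CF libraries (log2 fold change 1.17, SE 0.21, adjusted p = 0.0452). IGFBP5, which binds insulin-like growth factors, was at 343 and 352 CPM in WT and 476 and 497 in CF at day 100, and 189 and 188 in WT and 443 and 450.2 in CF at day 120, with no overlap but an adjusted p of 0.0744 (log2 fold change 0.86, SE 0.19). MYOCD, the coactivator that drives smooth muscle genes, ran from 8.49 to 14.7 CPM in WT and 14.7 to 27.4 CPM in CF (log2 fold change 0.85, SE 0.24, adjusted p = 0.12). Without CF day 120 replicate 2 the last 2 genes passed, at adjusted p of 0.0303 and 0.0379.

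Smooth muscle genes as a list had no call among 16 tested by edgeR, with 7 higher and 2 lower at an unadjusted p below 0.05, 4 higher and 1 lower by DESeq2, and a median log2 fold change of 0.46. Over all genes, 12.8% were higher and 6.29% lower at that unadjusted p, and 7.97% and 3.61% by DESeq2. In 4 of the 16 all CF libraries were above all WT libraries, against 8.66% of all genes tested. Their summed level was 1685 to 1910 CPM in WT and 2037 to 2627 CPM in CF, without overlap. MYH11, the smooth muscle myosin heavy chain, was at 223 and 239 CPM in WT and 348 and 362 in CF at day 100. At day 120 MYH11 was at 151 and 114 CPM in WT and 324 and 252 in CF (log2 fold change 0.87, SE 0.19, adjusted p = 0.0638). ACTA2, the smooth muscle actin, was at 301 and 285 CPM in WT and 391 and 579 in CF at day 100. At day 120 ACTA2 was at 321 and 208 CPM in WT and 549.6 and 774 in CF (log2 fold change 1.03, SE 0.25, adjusted p = 0.0869). ITGA8, an integrin of lung myofibroblasts, had the opposite direction, at 101 to 155 CPM in WT and 43.2 to 108 CPM in CF (log2 fold change -1, SE 0.27, adjusted p = 0.11). For ITGA8 the log2 fold change was -0.81 without CF day 120 replicate 2 (adjusted p = 0.034). Without CF day 120 replicate 2, 4 of the list were called higher, among them MYH11 (adjusted p = 0.022), ACTA2 (0.0377) and SMTN (0.0325), and 1 was called lower. Of all genes tested without that library, 6.5% were called higher and 3.09% lower.

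Genes of heart and skeletal muscle had a median log2 fold change of 0.73 over 15 tested and a summed level of 36.3 to 48.6 CPM in WT and 62.9 to 138 CPM in CF. EdgeR called none of this list. At an unadjusted p below 0.05, 2 were higher and none lower (12.8% and 6.29% of all genes). DESeq2 called 1 higher and none lower (7.97% and 3.61% of all genes). MYBPC3, described above, is not part of this list. TNNT3, a troponin of fast skeletal muscle, was at 15.7, 17, 9.11 and 16.4 CPM in the WT libraries and 24.8, 54, 25.8 and 86.8 CPM in the CF libraries (log2 fold change 1.71, SE 0.44, adjusted p = 0.108). For TNNT3 the log2 fold change was 1.17 without CF day 120 replicate 2 (adjusted p = 0.0431). TNNC1, the troponin C of heart and slow muscle, ran from 0 to 0.113 CPM in WT and 0.0395 to 1.39 CPM in CF and thus stayed near 0 in all but CF day 100 replicate 2.

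Cartilage genes had a median of 0.91 over 21 tested, with none called by edgeR, 12 higher and 2 lower at an unadjusted p below 0.05, and 5 higher and 1 lower by DESeq2. Of all genes tested, 19.1% lay below that unadjusted p (12.8% higher and 6.29% lower), and DESeq2 called 7.97% higher and 3.61% lower. COL11A2, a fibrillar collagen of cartilage, was at 2.23, 5.58, 1.37 and 1.74 CPM in the WT libraries and 6.7, 12.3, 6.4 and 15.5 CPM in the CF libraries (log2 fold change 2.04, SE 0.49, adjusted p = 0.0983). For COL11A2 the log2 fold change was 1.59 without CF day 120 replicate 2 (adjusted p = 0.0365). COL9A3, which joins the surface of cartilage fibrils, was at 8.31, 14.3, 5.64 and 14.5 CPM in the WT libraries and 33.7, 52.6, 14.2 and 30.3 CPM in the CF libraries (log2 fold change 1.54, SE 0.41, adjusted p = 0.112), with CF day 120 replicate 1 within the WT range. COL2A1, the main cartilage collagen, chosen after its values were seen, was at 43.5 and 65.7 CPM in WT and 58.1 and 62.9 in CF at day 100, and 1.58 and 2.04 in WT and 0.983 and 71.3 in CF at day 120. CF day 120 replicate 2 was thus near the day 100 libraries of both genotypes and far above the other 3 of day 120. The list's summed level overlapped between the groups, at 302 to 536 CPM in WT and 391 to 683 CPM in CF, and without CF day 120 replicate 2 its median was 0.58.

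Markers of airway secretory cells differed widely between libraries of 1 genotype. SCGB1A1, the secretoglobin of club cells, was at 0.679 and 1.03 CPM in WT and 0.573 and 1.15 in CF at day 100. At day 120 SCGB1A1 was at 2.51 and 0 CPM in WT and 20.4 and 92.3 in CF. It was thus higher in both CF libraries of day 120 than in the rest, with a log2 fold change of 5.49 at day 120 and 0.01 at day 100, but the difference over both days had an adjusted p of 0.455. SCGB3A2, a related secretoglobin, was at 70.7 and 8.17 CPM in WT and 1.28 and 2.44 in CF at day 100, and 329.6 and 29 in WT and 78.9 and 3344 in CF at day 120, a range over 3 orders of magnitude with its top in CF day 120 replicate 2 (log2 fold change -0.54, SE 1.65, adjusted p = 0.958; without that library, -2.94, adjusted p = 0.119). WFDC2, a secreted antiprotease, was at 31.9, 24.2, 69.7 and 46.4 CPM in the WT libraries and 19, 41.9, 55.9 and 462 CPM in the CF libraries (log2 fold change 1.14, SE 0.67, adjusted p = 0.445; without CF day 120 replicate 2, 0.05, adjusted p = 0.932), and BPIFB1, a defence protein of airway fluid, at 3.51, 0.628, 11.7 and 1.38 CPM in the WT libraries and 0.198, 0.149, 6.77 and 30.9 CPM in the CF libraries (log2 fold change -0.89, SE 1.16, adjusted p = 0.817). For BPIFB1 the log2 fold change was -1.81 without CF day 120 replicate 2 (adjusted p = 0.275). BPIFA1 had too few counts to be tested. Over the 25 secretory and defence genes tested, edgeR called none. At an unadjusted p below 0.05, 1 was higher and 1 lower (12.8% and 6.29% of all genes). DESeq2 called 1 higher and none lower (7.97% and 3.61% of all genes). The median of the 25 was 0.07 with and -0.29 without CF day 120 replicate 2.

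Among 15 airway basal genes 1 was called higher and none lower, against 1.5% and 0.284% of all genes. This was LAMB3, the beta chain of a laminin of the epithelial basement membrane. It was at 34, 59.5, 102 and 68.8 CPM in the WT libraries and 128, 164, 182 and 305 CPM in the CF libraries (log2 fold change 1.58, SE 0.26, adjusted p = 0.039). For LAMB3 the log2 fold change was 1.42 without CF day 120 replicate 2 (adjusted p = 0.014). KRT5, the keratin that defines basal cells and likewise chosen after its values were seen, was at 2.04, 1.11, 4.73 and 2.65 CPM in the WT libraries and 0.227, 0.234, 1.01 and 57 CPM in the CF libraries (log2 fold change 0.24, SE 1.31, adjusted p = 0.97). For KRT5 the log2 fold change was -2.37 without CF day 120 replicate 2 (adjusted p = 0.017). The summed basal level was 295 to 380 CPM in WT and 424 to 820 CPM in CF, and the median over the 15 genes was 0.27. Without CF day 120 replicate 2 the median was -0.01, with 1 gene called higher and 2 lower (6.5% and 3.09% of all genes). Of 34 genes of multiciliated cells edgeR called none. At an unadjusted p below 0.05, 1 was higher and 5 lower (12.8% and 6.29% of all genes). DESeq2 called 1 higher and 3 lower (7.97% and 3.61% of all genes). The median of the 34 was -0.31, and -0.90 without CF day 120 replicate 2, when 5 were called lower (3.09% of all genes were). CFAP43, a protein of the ciliary axoneme, was at 25.3 and 13.1 CPM in WT and 8.09 and 6.99 in CF at day 100. At day 120 CFAP43 was at 34.7 and 22.6 CPM in WT and 12.8 and 22.2 in CF (log2 fold change -1.03, SE 0.31, adjusted p = 0.14; without that library, -1.28, adjusted p = 0.0256). DNAH5, a dynein heavy chain of motile cilia, was at 23.4 and 8.8 CPM in WT and 5.31 and 3.2 in CF at day 100. At day 120 DNAH5 was at 35.7 and 13.1 CPM in WT and 9.79 and 16.2 in CF (log2 fold change -1.42, SE 0.46, adjusted p = 0.167; without that library, -1.67, adjusted p = 0.0491).

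Surfactant genes were compared between genotypes, and the contrast between days was not tested here. As a check of the tissue, SFTPC, the surfactant protein that defines type 2 cells, was present in all 8 libraries, at 861, 886, 2330.1 and 3381 CPM in the WT libraries and 514, 822, 2786 and 15937 CPM in the CF libraries. Its highest level was again in CF day 120 replicate 2 (log2 fold change 0.66, SE 0.61, adjusted p = 0.65). For SFTPC the log2 fold change was -0.24 without CF day 120 replicate 2 (adjusted p = 0.515). SFTPA1, a surfactant collectin, was at 42.3 and 35.9 CPM in WT and 21 and 21.7 in CF at day 100. At day 120 SFTPA1 was at 553 and 459 CPM in WT and 1593 and 1184 in CF. CF was below WT at day 100 and above it at day 120, with log2 fold changes of -0.87 and 1.46 (log2 fold change 0.30, SE 0.44, adjusted p = 0.805 over both days). SFTPB, which spreads the surfactant film, was at 557 and 571 CPM in WT and 779 and 681 in CF at day 100. At day 120 SFTPB was at 1042 and 856 CPM in WT and 1779.6 and 1932 in CF (log2 fold change 0.67, SE 0.21, adjusted p = 0.142; 0.0197 in DESeq2). SFTPD, the other surfactant collectin, ran from 83.7 to 213 CPM in WT and 74.7 to 635 CPM in CF (log2 fold change 0.73, SE 0.35, adjusted p = 0.326; without CF day 120 replicate 2, 0.38, adjusted p = 0.306) and overlaps TMEM254. ABCA3, the lipid transporter of lamellar bodies, was at 19.6 and 21.3 CPM in WT and 29 and 36.5 in CF at day 100, and 20.7 and 19.4 in WT and 71.5 and 57.5 in CF at day 120, higher in every CF library but not called (log2 fold change 1.18, SE 0.24, adjusted p = 0.0613). For ABCA3 the log2 fold change was 1.16 without CF day 120 replicate 2 (adjusted p = 0.0237). Over 18 type 2 cell and surfactant genes the median was 0.29, with none called by edgeR. At an unadjusted p below 0.05, 3 were higher and 1 lower (12.8% and 6.29% of all genes). DESeq2 called 2 higher and 1 lower (7.97% and 3.61% of all genes). AQP5, a water channel of type 1 cells, was at 3.73 and 4.81 CPM in WT and 21.2 and 21.5 in CF at day 100. At day 120 AQP5 was at 70.1 and 45.5 CPM in WT and 86.9 and 126 in CF (log2 fold change 1.59, SE 0.33, adjusted p = 0.0634). For AQP5 the log2 fold change was 1.65 without CF day 120 replicate 2 (adjusted p = 0.0277). Over 14 type 1 genes the median was 0.15, again with none called by edgeR. At an unadjusted p below 0.05, 2 were higher and none lower, and DESeq2 called 2 higher and none lower. The shares of all genes are those just given.

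Among 23 macrophage and myeloid genes 1 was called higher and among 29 interferon-induced genes 1 lower, against 1.5% and 0.284% of all genes. CD68, a lysosomal glycoprotein of macrophages, was called higher, at 17.2 and 17.6 CPM in WT and 34 and 52.6 in CF at day 100. At day 120 CD68 was at 14.6 and 15.2 CPM in WT and 30.9 and 33.4 in CF (log2 fold change 1.21, SE 0.19, adjusted p = 0.0352), and MRC1, the mannose receptor of macrophages, was lower in every CF library without a call, at 9.56, 6.95, 9.46 and 7.83 CPM in the WT libraries and 3.15, 3.04, 4.52 and 1.44 CPM in the CF libraries (log2 fold change -1.48, SE 0.37, adjusted p = 0.0934). For MRC1 the log2 fold change was -1.22 without CF day 120 replicate 2 (adjusted p = 0.022). The summed level of 23 macrophage and myeloid genes was 311 to 483 CPM in WT and 282 to 495 CPM in CF, and their median was -0.35 (-0.68 without CF day 120 replicate 2). CD8B, a coreceptor of cytotoxic T cells, was at 1.92, 0.961, 1.64 and 1.38 CPM in the WT libraries and 5.35, 7.74, 3.26 and 9.6 CPM in the CF libraries (log2 fold change 2.13, SE 0.41, adjusted p = 0.0538). For CD8B the log2 fold change was 1.76 without CF day 120 replicate 2 (adjusted p = 0.0268). IFIT2, an interferon-induced gene, was called lower, at 15.4 and 15.4 CPM in WT and 6.18 and 4.57 in CF at day 100. At day 120 IFIT2 was at 16.3 and 17.6 CPM in WT and 10 and 6.66 in CF (log2 fold change -1.27, SE 0.24, adjusted p = 0.048), with a list median of -0.15. The log2 fold change of IFIT2 was not past the threshold with libraries thinned to equal depth (adjusted p = 0.0558), without the filter on low counts (0.0506), with the 2 WT libraries of day 100 summed (0.154), and without any 1 of 6 of the 8 libraries (0.0970 to 0.201), and was past it without either CF library of day 120. The chemokines CXCL10 and CXCL11, which attract T cells, ran from 2.65 to 6.8 CPM in WT and 1.96 to 6.75 CPM in CF and from 0.22 to 0.701 CPM in WT and 0.0919 to 0.326 CPM in CF (-0.29, SE 0.35, adjusted p = 0.714 and -1.02, SE 0.62, adjusted p = 0.433). For CXCL10 it was -0.50 without CF day 120 replicate 2 (adjusted p = 0.365). Of 26 inflammatory and complement genes edgeR called none. At an unadjusted p below 0.05, 1 was higher and 1 lower (12.8% and 6.29% of all genes). DESeq2 called 1 higher and 1 lower (7.97% and 3.61% of all genes).

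Signals between mesenchyme and epithelium held 1 call among 38 patterning genes tested, against 1.79% of all genes. FGF7, a mesenchymal growth factor for lung epithelium, was at 14.9 and 13.3 CPM in WT and 5.28 and 7.04 in CF at day 100. At day 120 FGF7 was at 28.6 and 38.3 CPM in WT and 15.7 and 13.6 in CF. CF was lower within each day, although the days overlap (log2 fold change -1.19, SE 0.20, adjusted p = 0.0388). Next by p were WNT7B, an epithelial Wnt ligand, at 4.38, 3.88, 3.36 and 2.76 CPM in the WT libraries and 8.57, 9.27, 5.89 and 8.33 CPM in the CF libraries (log2 fold change 1.16, SE 0.24, adjusted p = 0.0573; without CF day 120 replicate 2, 1.04, adjusted p = 0.0271), and GLI1, a target of hedgehog signalling, at 16.2, 18.5, 15.8 and 17.8 CPM in the WT libraries and 54.5, 63.1, 66 and 22.4 CPM in the CF libraries (log2 fold change 1.58, SE 0.32, adjusted p = 0.0573). For GLI1 the 3 CF libraries other than CF day 120 replicate 2 lay at 54.5 to 66.0 CPM and that library at 22.4 CPM, and without it the gene was called (1.85, adjusted p = 0.00329). FGF18, a growth factor of cartilage and septa, was at 15.5, 21.1, 13.4 and 7.11 CPM in the WT libraries and 24.4, 44.1, 34.1 and 73.8 CPM in the CF libraries (log2 fold change 1.65, SE 0.43, adjusted p = 0.111). For FGF18 the log2 fold change was 1.24 without CF day 120 replicate 2 (adjusted p = 0.04). The median of the list was 0.07.

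In all, the 27 lists had 570 genes tested, of which edgeR called 4, LAMB3, CD68, IFIT2 and FGF7. That was 0.702% of these members, against 1.79% of all 18689 genes tested. All 4 calls were lost with the 2 WT libraries of day 100 summed, and without any 1 of the WT libraries or of the CF libraries of day 100. They were also lost with libraries of the same day and replicate number as a block. FGF7 was also not called without CF day 120 replicate 1. The 23 lists without a call had 468 members, and an unadjusted p below 0.05 was found in 57 with CF higher and 32 with CF lower, and DESeq2 called 34 and 19. At an unadjusted p below 0.05 the shares were 12.2% and 6.84% of these members, against 12.8% and 6.29% of all genes. For DESeq2 they were 7.26% and 4.06%, against 7.97% and 3.61%. The other medians were 0.24 for neuroendocrine cells, 0.02 for extracellular matrix, 0.19 for blood and lymph endothelium, -0.45 for erythroid cells, -0.38 for lymphoid cells and -0.16 for inflammation and complement. They were -0.08 for hypoxia and glycolysis, 0.16 for the cell cycle, 0.03 for immediate early and heat shock genes, 0.15 for imprinted genes, -0.29 for genes that escape X inactivation and -0.02 for nerve and glia. For mesothelium, glucocorticoid response and the genes of thymus, oesophagus and liver they were -0.31, -0.34 and 0.16. Without CF day 120 replicate 2 the neuroendocrine median was -0.50 and that of the thymus, oesophagus and liver genes -0.27, both opposite in sign to the values above. Mesothelium was then at -0.90, erythroid cells at -0.63, lymphoid cells at -0.58, endothelium at 0.38, immediate early and heat shock genes at 0.24, nerve and glia at -0.20 and glucocorticoid response at -0.10. Of 40 cell cycle genes 9 were higher at an unadjusted p below 0.05 and none lower, among them PLK1, a mitotic kinase, at 21.2 and 24.6 CPM in WT and 28.4 and 37.8 in CF at day 100. At day 120 PLK1 was at 10.6 and 8.02 CPM in WT and 19.6 and 16.7 in CF (log2 fold change 0.75, SE 0.21, adjusted p = 0.114). Of 27 genes of blood and lymph endothelium edgeR called none, and 15 were above 0. At an unadjusted p below 0.05, 7 were higher and 2 lower (12.8% and 6.29% of all genes). DESeq2 called 4 higher and 1 lower (7.97% and 3.61% of all genes). All CF libraries were above all WT libraries in 2 of the 27 and below them in 1. EGFL7, a secreted protein of endothelium, was at 28.8, 68.6, 71.9 and 59.7 CPM in the WT libraries and 91.8, 202, 215 and 387 CPM in the CF libraries (log2 fold change 1.89, SE 0.37, adjusted p = 0.0568; without CF day 120 replicate 2, 1.64, adjusted p = 0.0214), and VWF, the clotting factor of endothelium, at 56.2, 76.2, 58.6 and 79.5 CPM in the WT libraries and 137, 183, 102 and 92 CPM in the CF libraries (log2 fold change 0.88, SE 0.23, adjusted p = 0.102; without CF day 120 replicate 2, 1, adjusted p = 0.0282).

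Taken day by day, the comparison rested on 2 against 2 libraries and edgeR called 1 gene at each day, LOC101112291. At day 100, 1587 genes had an unadjusted p below 0.05, and at day 120 this held for 1986. DESeq2 called 384 at day 100 and 575 at day 120. The difference between the days in the genotype effect was tested for every gene, and edgeR called none, with 299 at an unadjusted p below 0.05 and 25 called by DESeq2. Without CF day 120 replicate 1, which left only the library that stood apart at that day, 4946 genes were called at day 120 and 1005 for the difference between days, while without replicate 2 the counts were 1 and 0. Among the genes with the smallest p for the difference, SFTPA1 went from -0.87 to 1.46 (unadjusted p = 6.64e-04). LUZP2, a leucine zipper protein, was at 6.76 and 7.69 CPM in WT and 54.3 and 50.4 in CF at day 100, and 30.7 and 32.8 in WT and 59.1 and 39.5 in CF at day 120, with log2 fold changes of 2.86 and 0.64 (unadjusted p = 8.10e-04). SEMA4G, a membrane semaphorin, was at 22.3 and 24.5 CPM in WT and 52.9 and 40.9 in CF at day 100, and 25.3 and 34.6 in WT and 20 and 19.9 in CF at day 120, above WT at day 100 and below it at day 120 (unadjusted p = 0.00498), and KIAA1024 was at 2.6 and 2.74 CPM in WT and 5.96 and 4.42 in CF at day 100. At day 120 KIAA1024 was at 0.701 and 1.27 CPM in WT and 0.157 and 0.23 in CF (unadjusted p = 0.00268). LOC105605834 ran from 34.5 and 37.3 CPM in WT at day 100 to 14.1 and 8.65 at day 120, and in CF from 18.2 and 25.1 to 38.9 and 41.3 (unadjusted p = 9.57e-04). APOB, the apolipoprotein of lipoprotein particles, had 12.2 and 9.61 CPM in WT at day 100 and at most 0.0689 CPM elsewhere (unadjusted p = 1.76e-04).

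Proximal lung at days 65 and 80, from 8 other libraries, gave 1027 calls between the genotypes (5.23% of 19622 genes), and 248 of the 334 genes called at days 100 and 120 (74.3%) were among them, which is 24.1% of the 1027. All 248 had the same direction. The CF libraries there came from the same cell line and were deeper as well. In the test of late against early days edgeR called no gene, with 952 at an unadjusted p below 0.05, and 3 genes without CF day 120 replicate 2. For the leading genes the early log2 fold changes were 2.02 for KCP, 1.93 for GPR143, 4.93 for MYBPC3, -4.22 for CDR1, -0.98 for TFPI and 1.59 for ITGA7. PI15 was the exception among these genes, at 0.40 early against -1.83 late, a difference of -2.24 with an unadjusted p of 0.00434 and an adjusted p of 0.765. FGF7 was likewise at 0.38 early (unadjusted p of the difference 0.00486).

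Among genes with an average log2 CPM of at least 1, the smallest p for the change from early to late days belonged to GREM1, a BMP antagonist, at 1.75 early and -0.34 late (unadjusted p = 2.16e-05, adjusted p = 0.399). ANO1 was at 1.03 early and -0.22 late (unadjusted p = 6.09e-05), and MFAP4, a protein of elastic fibres, at 0.79 and -0.57 (unadjusted p = 5.23e-05). In the other direction, NKAIN1 went from -0.22 to 1.32, SCARB1, the HDL receptor, from -0.55 to 0.40 and SDC2, a heparan sulfate proteoglycan, from -0.74 to 0.28. Their unadjusted p for the difference were 2.88e-04, 2.28e-04 and 2.94e-04, and none passed adjustment. MYOCD and ACTA2, both uncalled late, had early values of 2.28 (adjusted p = 0.00151) and 1.99 (adjusted p = 0.00567).

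Distal lung at days 100 and 120 gave 3834 calls (20.6% of 18655 genes). Of the 334 genes called in proximal lung 323 (96.7%) were called in distal lung too, all in the same direction, and they make up 8.42% of the distal calls. In the test of the difference between regions, libraries of the same genotype, day and replicate number were taken as 1 animal and used as a block. Animal labels were not used for this, and by label both WT proximal libraries of day 100 are 1 animal. The test called no gene by edgeR, with 649 at an unadjusted p below 0.05. Without CF day 120 replicate 2 of both regions there were 413. Distal log2 fold changes were 2.39 for KCP, 3.11 for GPR143, -3.75 for CDR1, -2.37 for TFPI, -1.05 for IDH1 and 0.99 for LAMB3, against proximal values of 2.91, 3.35, -3.79, -2.12, -1.32 and 1.58. PI15 was at -0.77 in distal lung (adjusted p = 0.103; unadjusted p of the difference 0.00368). The genes with the smallest p for a proximal value below the distal one were NAPSA, an aspartic protease of type 2 cells, with a difference of -0.74, GDF7, a BMP ligand, with -1.74, and LOC101123672, with -1. Those in the other direction were RGCC, RARRES1 and IFI6, with differences of 0.76, 0.95 and 1.19, and no difference passed adjustment. CFTR was at -0.49 in distal lung and -0.70 in proximal lung at days 65 and 80, and neither value was called (adjusted p = 0.152 and 0.103).

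**Figure D5:**
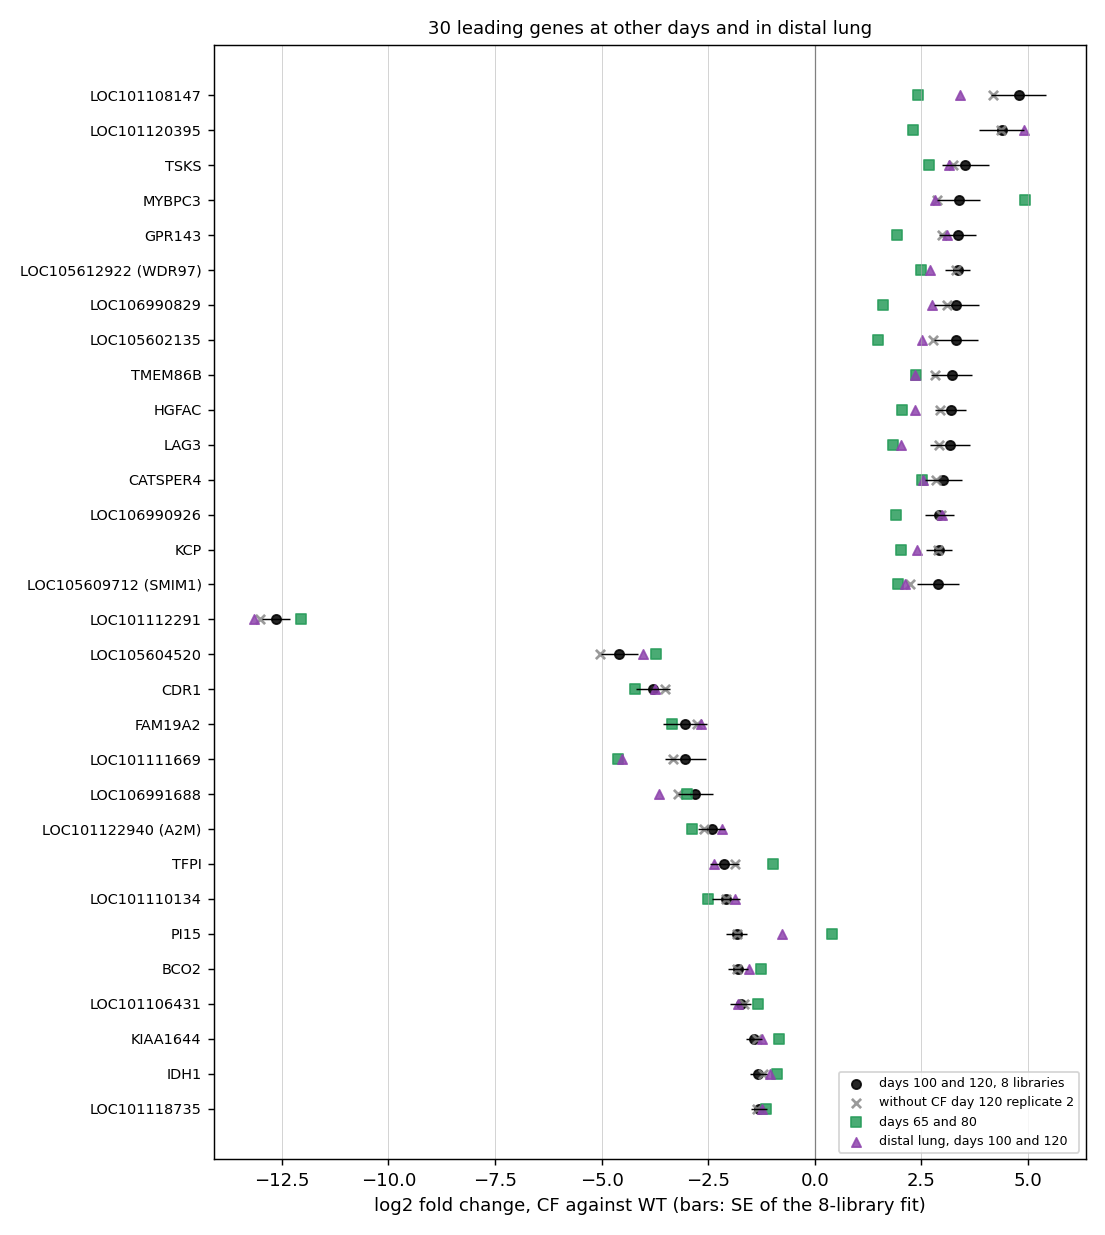
Log2 fold change of CF against WT for the 30 leading genes, from the 8 libraries with bars of 1 SE, without CF day 120 replicate 2, in proximal lung at days 65 and 80, and in distal lung at days 100 and 120. The 4 values of a gene lie on the same side of 0 in all but PI15, whose early value is 0.40.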

How the data were processed

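RNA of snap-frozen proximal lung was extracted with TRIzol, primed with oligo dT and sequenced as 100 bp pairs. The authors aligned reads to Oar_v4.0 with STAR and deposited raw counts of 24478 genes from featureCounts 1.6.3, without normalization or pooling. The annotation, strand setting and treatment of mates are not given in the sources used here. The 8 libraries were grouped by their labels. The members and gene lists were chosen with earlier results of these data known.

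The tools were edgeR 4.0.16 with limma 3.58.1, and DESeq2 1.42.0 as an alternative, all in R 4.3.3, after filterByExpr (count minimum 10, total minimum 15) and TMM scaling. In edgeR, glmQLFit had 1 term for genotype and 1 for day, which left 5 residual degrees of freedom, and glmQLFTest used Benjamini-Hochberg adjustment. The interaction with day and the contrast with days 65 and 80 used 1 mean per genotype and day. The contrast with distal lung used a block for each genotype, day and replicate number, taken as 1 animal. For principal components a prior count of 2 was added before taking log2 CPM. Genes named are those the study names, the 15 with the largest called change in each direction (average log2 CPM of at least 1, groups not overlapping), the up to 4 members of each of 27 lists with the smallest p, and the 3 in each direction with the smallest p for each difference between effects. The text gives part of these, and 1 result is not reported here. Other genes named were chosen after their values were seen. Locus numbers were matched to RefSeq (ARS-UI_Ramb_v3.0) for names only: of 8432, 4235 were found and 573 had a symbol. The scripts were tested on simulated data. Alternatives are given in the closing section.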

Additional observations from a re-analysis of the deposited data

Results flagged for a closer look

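In 8 of 116 groups of 4 libraries examined, 1 library lay far from the other 3 (by Dixon's ratio of the gap to the nearest library over the whole range), and chance gives this in about 1 of 20 groups. None of the 8 was a measure of the library itself. In 3 of them the library was CF day 120 replicate 2, which stood above the other CF libraries, with ANO1 at 110.4 CPM against 77.9 to 80.1, WFDC2 at 462 CPM against 19 to 55.9, and SCGB3A2 at 3344 CPM against 1.28 to 78.9. WT day 100 replicate 2 stood above the other WT libraries for GPR143, at 2.51 CPM against 1.21 to 1.41, and for KCP, at 13.5 CPM against 4.38 to 4.95. It stood below them for BCO2, at 8.28 CPM against 11.6 to 11.7. WT day 120 replicate 1 had LOC106990829 at 5.46 CPM against 0.992 to 1.24 in the other WT libraries. CF day 100 replicate 1 had LOC105612922 (WDR97) at 6.02 CPM against 10.7 to 11.4 in the other CF libraries. The 5 genes among these that were called kept their direction in every fit that could be run. They had been chosen with groups that did not overlap, which largely fixed that direction in advance.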

How the results depend on the processing

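With the 8 libraries, RLE scaling, no filter, thinning to equal depth, bias-adjusted quasi-likelihood and a robust spread gave 275 to 429 calls at an adjusted p of 0.05, within 1.5 times of 334, and 1 past the strict limit. A test against the fold limit and an adjusted p of 0.01 also left 1 at the strict fold limit. DESeq2 gave 2163 and 610, and removal of a trend on gene length 915 and 1. The fit over all 20 proximal libraries gave 1723 and 37. Summing the 2 WT libraries of day 100 gave 2 and 0. Leaving out 1 library gave 1 to 1777 calls, and 0 to 1 past the strict limit. The lowest value of 1 came from leaving out any WT library or CF day 100 replicate 2, with 3 without CF day 100 replicate 1, 180 without CF day 120 replicate 1 and 1777 without CF day 120 replicate 2. Without both CF libraries numbered 2, chosen after seeing the data, there were 4871 and 117. Fits with 1 library fewer have 1 residual degree of freedom fewer, and beyond this the cause was not tested.

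A replicate block gave 1 call and 0 past the strict limit, and kept 1 of the 37 calls among named genes. Replicate numbers are shared only as numbers, since the deviations of same-numbered libraries correlated at 0.0888 at day 100 and 0.0303 at day 120. Day by day, DESeq2 gave 384 calls at day 100 and 575 at day 120, where edgeR gave 1, and 25 against 0 for the difference between days. Leaving out 1 library gave 0 to 21 calls at day 100, 0 to 4946 at day 120 and 0 to 1005 for the difference. In these fits an arm may hold 1 library, which is assumed to vary like the others. Late against early days gave 3 calls in place of 0 without CF day 120 replicate 2. RLE scaling and thinning changed none of the counts of calls for the days, for late against early days or for proximal against distal lung. The counts for days 65 and 80 alone and for distal lung alone were not recomputed. Of 168 named genes, none of the 37 called changed direction in any fit, and 17 uncalled ones changed it in at least 1. The direction of 30 of the 37 was largely fixed by choosing genes without overlap between the groups. Depth limits genes at few counts in the shallower WT libraries.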

Other observations

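The following genes, which lay far apart between the 2 CF libraries of day 120, were chosen after their values were seen. Of 5678 genes at 50 CPM or more in 1 of the 2, 405 were over 4-fold higher in replicate 2 and 315 over 4-fold lower. KRT15, a keratin of airway basal cells, was at 204 CPM in replicate 2 and 5.15 in replicate 1. PI3, an elastase inhibitor of mucosal surfaces, was at 269.9 and 3.15 CPM, and AGR2, a protein of mucus-secreting cells, at 107 and 5.93 CPM.

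Among the lower genes were several that are imprinted in mammals. PEG10 was at 0.494 CPM in replicate 2 and 167 CPM in replicate 1, IGF2R at 5.58 and 617 CPM and PEG3 at 0.85 and 125 CPM. Their exon lengths are 2370 bases for PEG10, 5613 for IGF2R and 5793 for PEG3. Relative to the mean of the 8 libraries, on the log2 scale, genes of 2 to 4 kb had a median of 0.08 in CF day 120 replicate 2. Genes of 4 to 8 kb had a median of -0.30 there. Whether length had a part in these low levels was not tested. Scaled over 16 libraries of both regions, PEG10 was at 20.9 CPM in CF distal day 120 replicate 2 and 36.4 CPM in CF proximal day 100 replicate 2. The other libraries but CF proximal day 120 replicate 2 itself lay at 96.3 CPM or more. Over the 25 imprinted genes tested, replicate 2 was below all 7 other libraries in 9 and above all in 8, against 31.5% and 29.1% of all genes.

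ASIP, the agouti signal of pigment cells, was at 1.44, 0.887, 1.26 and 64.3 CPM in the WT libraries and 97.9, 208, 104 and 333 CPM in the CF libraries. It was near 1 CPM in 3 WT libraries, at 64.3 CPM in WT day 120 replicate 2 and higher in all CF libraries, and was not called (log2 fold change 4.77, SE 1.15, adjusted p = 0.143).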
